A study of Homo sapiens with 6 samples.

Results

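Imprinted genes with known control regions were examined in DNMT3B knockout and unedited M07e cells, a human acute megakaryoblastic leukemia line grown with GM-CSF. The genes were H19, IGF2, KCNQ1OT1, MEG3, PEG3, ZIM2, GRB10, MEST, PLAGL1 and GNAS. A region was taken when it overlapped the RefSeq span of any of these 10 genes or lay within 10 kb of it, which gave 42 of the 35130 regions of the series. Of these, 33 overlapped a gene of the set and 9 lay outside. They held 454 sites in all, from 1 to 33 a region, with a median of 9 against 6 over all regions.

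Reduced representation bisulfite sequencing, which reads CpG-rich fragments cut by MspI, was carried out on 3 libraries of DNMT3B knockout cells made with CRISPR and 3 libraries of WT cells. Both groups are the same line, for which the series title names the CBFA2T3-GLIS2 fusion. The labels do not say whether the knockout is a clone or a pool, or whether replicates were separate cultures. The authors' deposited table gives 1 mean per group and region, so no spread between libraries, no depth and no replicate error can be given for any value below. One mean column is named M07e_WT. The other is named M07e_3883, which no label uses, and it was read as the knockout because the study has no other genotype; every direction rests on that reading. All levels, differences and q-values below are values of the authors' deposited table, and differences are M07e_3883 minus M07e_WT in percentage points.

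Genomic imprinting is the expression of a gene from the copy of one parent. It rests on control regions whose CpG sites are methylated on the maternal copy or on the paternal copy, a difference set in the germ line and kept through cell division by DNMT1 and by zinc finger proteins such as ZFP57. DNMT3B, DNMT3A and DNMT3L belong to the family that sets new methylation, and germline imprints are known to depend mainly on DNMT3A with DNMT3L. The control regions of H19 and IGF2 and of MEG3 are methylated on the paternal copy, and those of KCNQ1OT1, PEG3, GRB10, MEST, PLAGL1 and the XL and A/B starts of GNAS on the maternal copy. A normal imprinted control region therefore reads near 50% when both copies are sequenced together, and means between 35% and 65% are called intermediate here.

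The sequences below are the 300-base RefSeq start windows (250 bases before to 50 after an annotated start, GRCh38.p14, 5′ to 3′ on the strand of the gene) in which a measured region covered at least 60 bases. They show which CG pairs lie within the bounds of regions described later. Which of those pairs were read is not known. In 56.9% of the 2501 regions wholly inside start windows, the count of sites equalled the CG letters of both strands. Capitals mark the CG pairs that lie in the measured region. The GRB10 window is chr7:50782847-50783146 on the minus strand, the ZIM2-AS1 window chr19:56765072-56765371 on the plus strand, and the GNAS windows chr20:58839498-58839797 and chr20:58888930-58889229 on the plus strand.
GRB10: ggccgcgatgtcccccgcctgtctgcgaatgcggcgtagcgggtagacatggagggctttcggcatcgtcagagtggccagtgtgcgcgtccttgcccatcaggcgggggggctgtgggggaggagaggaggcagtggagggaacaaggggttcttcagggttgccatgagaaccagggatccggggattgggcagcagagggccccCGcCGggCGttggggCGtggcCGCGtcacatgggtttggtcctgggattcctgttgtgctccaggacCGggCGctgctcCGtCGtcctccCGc
ZIM2-AS1: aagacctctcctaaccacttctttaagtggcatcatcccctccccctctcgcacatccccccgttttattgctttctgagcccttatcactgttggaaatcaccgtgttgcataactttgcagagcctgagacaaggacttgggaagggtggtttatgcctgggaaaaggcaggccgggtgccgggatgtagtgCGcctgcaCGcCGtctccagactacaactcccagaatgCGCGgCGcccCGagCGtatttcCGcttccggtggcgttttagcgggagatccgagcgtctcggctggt
GNAS first start: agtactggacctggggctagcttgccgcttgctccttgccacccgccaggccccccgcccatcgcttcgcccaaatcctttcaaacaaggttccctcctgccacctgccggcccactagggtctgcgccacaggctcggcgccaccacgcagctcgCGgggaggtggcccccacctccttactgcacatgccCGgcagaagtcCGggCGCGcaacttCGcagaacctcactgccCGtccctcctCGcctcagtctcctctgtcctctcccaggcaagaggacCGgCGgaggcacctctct
GNAS last start: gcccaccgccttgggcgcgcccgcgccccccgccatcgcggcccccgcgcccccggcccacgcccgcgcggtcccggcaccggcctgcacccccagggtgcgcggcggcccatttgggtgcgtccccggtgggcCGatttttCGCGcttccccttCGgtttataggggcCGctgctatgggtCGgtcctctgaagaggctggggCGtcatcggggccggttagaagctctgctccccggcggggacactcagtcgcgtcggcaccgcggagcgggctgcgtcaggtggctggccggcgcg

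The bounds of the measured region took in 11 of 24 CG pairs of the GRB10 window and 9 of 20 of the ZIM2-AS1 window. They took in 10 of 21 at the first GNAS start and 7 of 43 at the last. The ZFP57 hexamer TGCCGC, searched on both strands, occurred once at the first GNAS start and not in the other windows printed. A MEST window that a measured region overlapped by 15 bases (chr7:130491835-130492134) held 3 copies. The hexamer was present in 16.7% of all 34935 start windows. Such a match is a run of letters and was not tied to binding of any factor.

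Over the set, 3 regions were called, meaning a q under 0.01 and a difference of at least 25 points. They were 7.14% of the 42, beside 6.74% over all regions. All 3 were higher in M07e_3883 cells, where the share over all regions is 4.57%, and none was lower, where it is 2.17%. The called regions lay at IGF2, ZIM2 and GRB10, and 7 genes of the set had none. A q under 0.01 at any difference was found for 8 regions (19.05%), beside 9.06% over all regions, so 5 had a low q with a difference under 25 points. The share with a low q was not compared at like numbers of sites, of which the 42 had a median of 9 against 6 over all regions. A further 15 of the 42 differed by 25 points or more without a low q, 13 higher and 2 lower in M07e_3883 cells. At any q, 18 regions (42.9%) differed by at least 25 points, beside 52.0% over all regions. No test between libraries could be made, and the authors' p-values must have counted points other than whole libraries, because 3 libraries against 3 cannot give a two-sided exact rank p under 0.1 and the table goes down to 3.96e-14.

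The median level of the 42 regions was 32.0% in M07e_3883 cells (quartiles 14.6% and 46.4%) and 15.4% in M07e_WT cells (2.55% and 32.8%). Over all regions these medians were 30.9% in M07e_3883 cells and 7.59% in M07e_WT cells. The median difference was 17.7 points (95% order-statistic interval over regions 5.27 to 25.5), beside 17.4 points over all regions. In M07e_3883 cells 32 regions were higher and 10 lower, or 76.2% higher beside 68.4% over all regions. The nearness of these medians held with all regions counted. Without regions where a group mean is exactly 0, the median difference was 15.2 points at the imprinted genes and 3.34 points over all regions, and with at least 10 sites it was 20.5 points at the imprinted genes and 28.7 points over all regions.

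**Figure D1:**
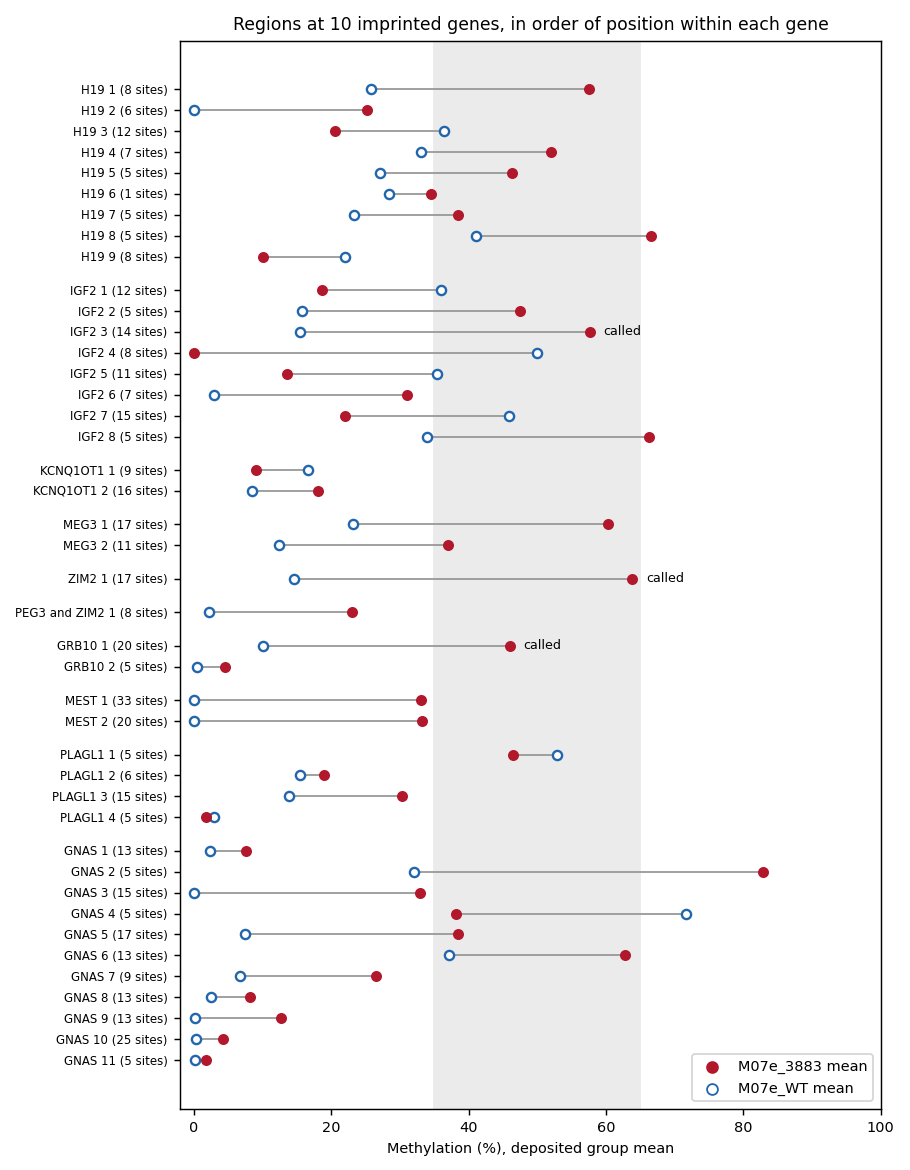
Deposited mean methylation (x axis, percent) of each of the 42 regions (y axis, by gene and position, with the number of sites). Filled points are M07e_3883 means and open points M07e_WT means; the shaded band is 35% to 65%. The 3 called regions, at IGF2, ZIM2 and GRB10, have M07e_3883 means of 57.6%, 63.9% and 46.0% and M07e_WT means of 15.4%, 14.6% and 10.0%.

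Intermediate methylation in both groups was found at 2 of the 42 regions (4.76%), beside 2.69% over all regions. These were 5 sites of PLAGL1 at 46.5% in M07e_3883 cells and 52.9% in M07e_WT cells, and 13 sites of GNAS at 62.8% in M07e_3883 cells and 37.2% in M07e_WT cells. The PLAGL1 sites lay inside the gene, 19147 bases past its nearest RefSeq start. Taken alone, the M07e_3883 mean was intermediate at 14 regions (33.3%, beside 19.8% over all regions) and the M07e_WT mean at 8 (19.05%, beside 13.8%). At 11 regions (26.2%, beside 15.3% over all regions) the M07e_3883 mean was intermediate and the M07e_WT mean under 35%. At 5 (11.9%, beside 7.46%) the M07e_WT mean was intermediate and the M07e_3883 mean under 35%. Both means were under 35% at 20 regions (47.6%, beside 63.1% over all regions).

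Regions differing by under 10 points made up a smaller share of those with an intermediate M07e_WT mean than of the table as a whole. Of all 35130 regions 23.8% differed by under 10 points, and of the 42 at imprinted genes 11 did (26.2%). Of the 4842 regions with an intermediate M07e_WT mean, 414 (8.55%) differed by under 10 points, and of the 8 at imprinted genes 1 did, the PLAGL1 region above. The sources used here do not say how regions entered the table. A control region at 50% in both groups may therefore not be listed, and the low count of such regions is no measure of how many imprints the cells keep.

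**Figure D2:**
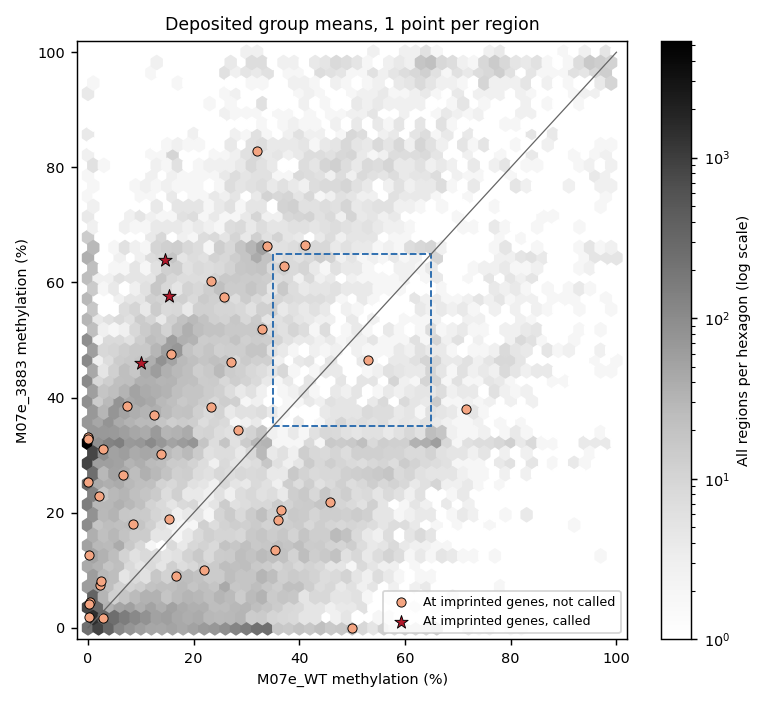
M07e_3883 mean (y axis, percent) against M07e_WT mean (x axis, percent) for all 35130 regions as grey hexagons on a log scale, with the 42 regions at imprinted genes as points and the 3 called as stars. The dashed square marks 35% to 65% in both groups, which holds 2 of the points; hexagons are sparse along the diagonal of equal means inside it.

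H19 is a non-coding RNA made from the maternal copy, and IGF2, its neighbour, is a growth factor made from the paternal copy. CTCF binds the unmethylated maternal control region upstream of H19 and keeps shared enhancers from IGF2. H19 had 9 regions, 7 higher and 2 lower in M07e_3883 cells, and none was called. All 9 also lie in the RefSeq span of MRPL23. Only 1 H19 start was listed, at the upper-coordinate side of its RefSeq span, and distances are from it. Other starts may exist, so which of these regions fall in the control region was not determined. Upstream of the listed start, 5 sites at 3217 bases were at 66.6% in M07e_3883 cells and 41.0% in M07e_WT cells (q = 0.953). Another 5 sites at 1360 bases upstream were at 38.4% in M07e_3883 cells and 23.2% in M07e_WT cells (q = 0.125). The farthest region upstream, 9711 bases from the start, went the other way, with 10.1% in M07e_3883 cells and 22.0% in M07e_WT cells (q = 1).

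Inside the RefSeq span of H19, which may take in part of the control region, values of both directions lay within 1 kb of each other. The region with the lowest q of the gene, 7 sites 538 bases past the start (chr11:2000722-2000734), was at 52.0% in M07e_3883 cells and 33.02% in M07e_WT cells (q = 0.00164, difference 18.97 points). The 5 sites next to it were at 46.3% in M07e_3883 cells and 27.2% in M07e_WT cells (q = 0.0743). A single-site region beside these was at 34.4% in M07e_3883 cells and 28.3% in M07e_WT cells, and its listed difference of 8.22 points departs from these means. The region of H19 with the most sites, 12 at 1412 bases past the start (chr11:1999819-1999889), was lower, at 20.5% in M07e_3883 cells and 36.5% in M07e_WT cells (q = 0.00637, difference -15.99 points). Both low q-values of H19 thus belong to differences under 25 points, of opposite sign. Toward the end of the gene, 6 sites were at 25.3% in M07e_3883 cells and 0% in M07e_WT cells, and 8 sites 801 bases beyond the span at 57.5% in M07e_3883 cells and 25.8% in M07e_WT cells, neither with a low q (1 and 0.122).

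IGF2 held a called gain among regions of mixed direction. Its 8 regions, all also in the span of the INS-IGF2 readthrough, were 4 higher and 4 lower in M07e_3883 cells. The called region, 14 sites (chr11:2138793-2138905), was at 57.6% in M07e_3883 cells and 15.4% in M07e_WT cells (q = 0.00609, difference 42.3 points). The 8 sites that follow within about 1 kb (chr11:2139987-2140025) were at 0% in M07e_3883 cells and exactly 50% in M07e_WT cells, with a q of 1. The 11 sites next to those were at 13.5% in M07e_3883 cells and 35.3% in M07e_WT cells (q = 0.242). The region with the most sites, 15 that also lie in the antisense gene IGF2-AS, was at 21.9% in M07e_3883 cells and 45.8% in M07e_WT cells (q = 0.0969). The other higher regions, of 5, 7 and 5 sites, had 47.5%, 31.1% and 66.3% in M07e_3883 cells and 15.8%, 2.86% and 33.9% in M07e_WT cells, and the other lower one 18.7% in M07e_3883 cells and 36.0% in M07e_WT cells. None of these had a q under 0.2.

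KCNQ1OT1 is a non-coding RNA made from the paternal copy, antisense to KCNQ1, that silences neighbours such as CDKN1C. Its maternally methylated control region lies at its start, the upper-coordinate end of its span. Both regions of the gene flank that end and were low in both groups. The 9 sites 233 bases inside were at 8.98% in M07e_3883 cells and 16.6% in M07e_WT cells (chr11:2699734-2699761, q = 0.0504). The 16 sites 814 bases beyond were at 18.1% in M07e_3883 cells and 8.49% in M07e_WT cells (chr11:2700808-2700856, q = 0.00155), a difference of 9.57 points. No KCNQ1OT1 mean reached 35%.

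MEG3, a growth-restraining non-coding RNA made from the maternal copy, had the region that missed a call by the least q among those differing by 25 points or more. Its 17 sites lie 1894 bases upstream of the nearest start (chr14:100824152-100824276) and were at 60.3% in M07e_3883 cells and 23.2% in M07e_WT cells, a difference of 37.1 points with q = 0.0104. Whether these MEG3 sites lie in the control region was not determined. The GRB10 region, the called one nearest to the q threshold, has q = 0.00939. The other MEG3 region, 11 sites 25753 bases past the start, was at 37.0% in M07e_3883 cells and 12.4% in M07e_WT cells (q = 0.644).

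PEG3 and ZIM2, zinc finger genes made from the paternal copy, share the upper-coordinate end of their RefSeq spans, where their control region is known to lie. The table had no region within 10 kb of that end. Their shared region, 8 sites 16252 bases inside the end (chr19:56824335-56824474), was at 23.0% in M07e_3883 cells and 2.16% in M07e_WT cells (q = 1). The called gain counted for ZIM2 is at the opposite side, 9222 bases below the ZIM2 span and 75401 bases from the shared end. Its 17 sites lie wholly in the ZIM2-AS1 start window printed above (chr19:56765265-56765325). They were at 63.9% in M07e_3883 cells and 14.6% in M07e_WT cells (q = 0.00013, difference 49.3 points). ZIM2-AS1 is a non-coding antisense RNA.

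GRB10 encodes an adaptor that restrains insulin and IGF signalling, and its control region is known to lie at an internal start. The called GRB10 region, 20 sites whose centre is 97 bases past the start printed above (chr7:50782661-50782938), was at 46.0% in M07e_3883 cells and 10.0% in M07e_WT cells (q = 0.00939, difference 36.0 points). The 5 sites at the outermost start, 71 bases upstream of it (chr7:50793517-50793532), were at 4.55% in M07e_3883 cells and 0.417% in M07e_WT cells (q = 0.476). The M07e_3883 mean was thus intermediate at the internal start and near 0 at the outer one, while the M07e_WT mean was 10.0% or less at both.

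PLAGL1 encodes a zinc finger regulator of growth made from the paternal copy, from a start it shares with the non-coding RNA HYMAI. The 15 sites 114 bases past that start (chr6:144008119-144008172) had the lowest q of the set, 1.95e-07, at 30.2% in M07e_3883 cells and 13.8% in M07e_WT cells, and were not called because the difference was 16.4 points. The 6 sites 971 bases past it were at 18.9% in M07e_3883 cells and 15.4% in M07e_WT cells (q = 1). At the outermost start, 5 sites 154 bases upstream were at 1.79% in M07e_3883 cells and 2.89% in M07e_WT cells (q = 1).

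MEST encodes a protein of the hydrolase fold family and is made from the paternal copy. Its control region lies at an internal start, and both regions of the gene lie just past it. The 33 sites 107 bases past that start (chr7:130492120-130492264) were at 33.045% in M07e_3883 cells and 0% in M07e_WT cells, and the 20 sites at 800 bases at 33.2% in M07e_3883 cells and 0% in M07e_WT cells, each with q = 1. This pair of values is common in the table. A M07e_3883 mean of 25% to 33.3% with a M07e_WT mean of exactly 0 was found at 7367 regions (21.0%), and at 4 regions of the set (9.52%): both of MEST, 1 of H19 and 1 of GNAS. None of the 4 was called.

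GNAS encodes the stimulatory G protein alpha subunit and has several starts, among them those of NESP55, XL, A/B and the common G protein transcript. Its 6 RefSeq start windows fall into a first, a middle and a last pair; the table of windows does not name the transcript of each and may not hold every start, so the pairs are given by position only. Of its 11 regions 10 were higher and 1 lower in M07e_3883 cells, and none was called. The M07e_3883 means followed position. At the first listed start, 13 sites (chr20:58839653-58839798, printed above) were at 7.53% in M07e_3883 cells and 2.26% in M07e_WT cells (q = 0.202). Around the middle pair of starts, from 1774 bases upstream to 3179 bases past the nearest one, 5 regions held the highest M07e_3883 means of the gene.

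Of these 5 GNAS regions, the 5 sites farthest upstream were at 82.9% in M07e_3883 cells and 32.0% in M07e_WT cells (chr20:58850931-58850954, q = 0.125), a difference of 50.9 points. They lie just above the upper-coordinate end of the antisense gene GNAS-AS1, which is the side of its start. The next 15 sites were at 32.9% in M07e_3883 cells and 0% in M07e_WT cells (q = 1). The only lower region, 5 sites 432 bases past the start, was at 38.1% in M07e_3883 cells and 71.6% in M07e_WT cells (q = 0.475). The 17 sites at 1298 bases were at 38.5% in M07e_3883 cells and 7.35% in M07e_WT cells (q = 0.0602). The 13 sites at 3179 bases are the intermediate region given above (q = 0.6). Over these 5 regions the M07e_3883 means ran from 32.9% to 82.9% and the M07e_WT means from 0% to 71.6%, with no steady order along the gene.

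The last 4 GNAS regions, at and beyond the last pair of listed starts, were low in both groups, at 1.80% to 12.7% in M07e_3883 cells and 0.171% to 2.45% in M07e_WT cells. They include the 13 sites at the last listed start, printed above, at 12.7% in M07e_3883 cells and 0.171% in M07e_WT cells (q = 0.0242). The 25 sites 1221 bases past it, the most of any GNAS region, were at 4.17% in M07e_3883 cells and 0.255% in M07e_WT cells (q = 0.00971), where the difference was 3.91 points. The remaining region, 9 sites far inside the gene, was at 26.5% in M07e_3883 cells and 6.67% in M07e_WT cells (q = 1).

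**Figure D3:**
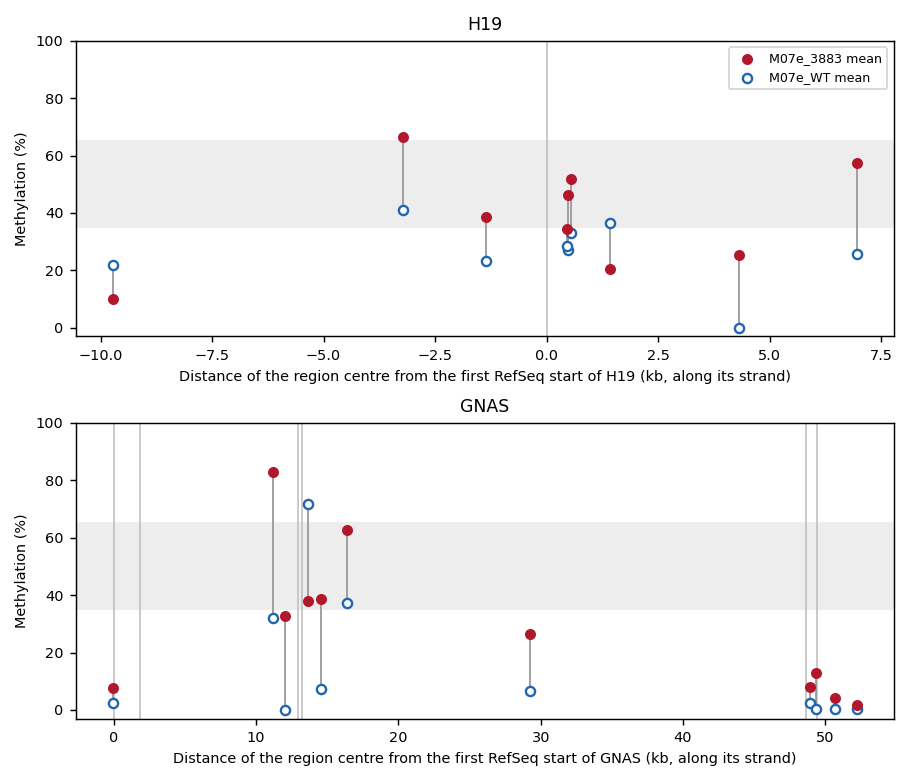
Methylation (y axis, percent) of the regions at H19 (top) and GNAS (bottom) against the distance of the region centre from the first RefSeq start, in kb along the strand of the gene. Filled points are M07e_3883 means and open points M07e_WT means, vertical grey lines are RefSeq starts and the band is 35% to 65%. The GNAS M07e_3883 means are highest around the middle pair of starts, up to 82.9%, and at most 12.7% around the first and last.

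Other imprinted genes were described from a list of 58 symbols, of which 56 matched the annotation. Regions not already counted above lay at 42 of these genes and numbered 183, with 12 called (6.56%, beside 6.74% over all regions), 8 higher and 4 lower in M07e_3883 cells, at 7 genes. Their median difference was 25.4 points, beside 17.4 points over all regions. The pair of values described above for MEST was found at 30.6% of these regions, beside 21.0% over all regions. A M07e_WT mean of exactly 0 was found at 36.1%, beside 26.1%, and no such region was called. The median of this list was not recomputed without them, and many of its regions lay at 1 gene, DLGAP2. Whether the larger median reflects a stronger gain at imprinted genes was not tested. CDKN1C, a cell cycle inhibitor in the domain of KCNQ1OT1, had 20 sites at 37.4% in M07e_3883 cells and 11.9% in M07e_WT cells (q = 1.54e-14). KCNQ1, a potassium channel gene whose span contains KCNQ1OT1, had a called gain (60.8% in M07e_3883 cells and 14.8% in M07e_WT cells, q = 0.000255) and a called loss (3.96% in M07e_3883 cells and 33.2% in M07e_WT cells, q = 8.9e-05). ASCL2, a transcription factor of the placenta, had 1 of each as well, with 39.7% in M07e_3883 cells and 10.8% in M07e_WT cells at 38 sites and 11.4% in M07e_3883 cells and 44.0% in M07e_WT cells at 7 sites. IGF2R, the receptor that clears IGF2, had 58 sites at 30.7% in M07e_3883 cells and 2.64% in M07e_WT cells (q = 3.46e-05), and ZDBF2 32 sites at 41.5% in M07e_3883 cells and 8.92% in M07e_WT cells (q = 0.0004). The other called regions were 1 lower region at DDC, and 3 higher and 1 lower at DLGAP2.

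Of 30 genes listed as setting or keeping imprints, among them TRIM28, CTCF and the DNA methyltransferases, 28 had a region within 10 kb. ZFP57, also listed, had none. Of the 61 regions of these 28 genes 1 was called (1.64%, beside 6.74% over all regions), and it was lower, as were 2.17% of all regions. It held 5 sites 6060 bases from CTCF at 0.66% in M07e_3883 cells and 37.1% in M07e_WT cells (q = 0.000137). Intermediate means in both groups were found at 6 of these regions (9.84%), beside 4 of the 183 at other imprinted genes (2.19%) and 2.69% over all regions.

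**Figure D4:**
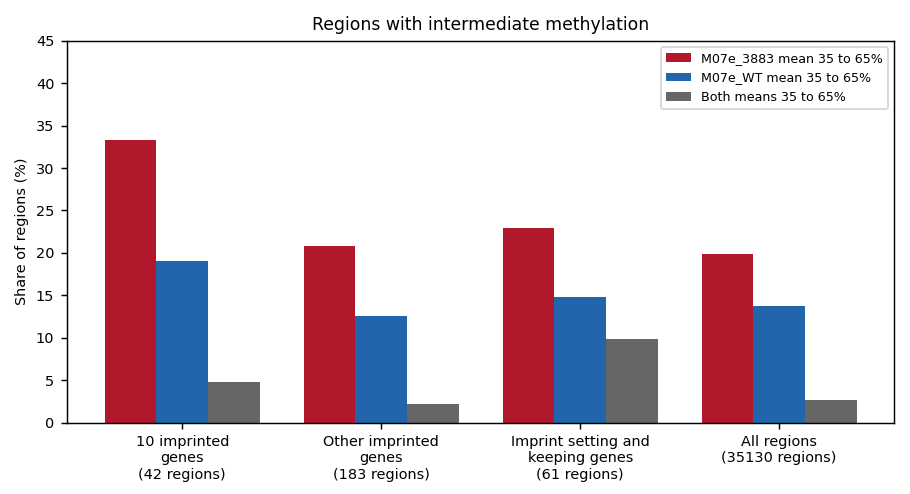
Share of regions (y axis, percent) with a mean of 35% to 65% in M07e_3883 cells, in M07e_WT cells and in both, for the 10 imprinted genes, the other imprinted genes, genes that set or keep imprints, and all regions. At the 10 genes the shares are 33.3%, 19.05% and 4.76%, and over all regions 19.8%, 13.8% and 2.69%; bars have no error because the table gives 1 mean per group.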

How the data were processed

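DNA methylation was measured by reduced representation bisulfite sequencing in 6 libraries. Build hg38 and the tools Bismark, methylKit, Trimmomatic, HISAT2 and FastQC are listed, with no version or role, per the submitters' processing notes. Per the file headers, the authors deposited for each region a methylation percent per group, the mean difference in percentage points, a count of CpG sites, p-values of Mann-Whitney and 2-dimensional Kolmogorov-Smirnov tests and a q-value. The derivation of q and the way libraries were combined are not stated there. The design planned no test of its own, and none was made; Benjamini-Hochberg adjustment of the Kolmogorov-Smirnov p over all 35130 regions was an alternative call.

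Regions were matched to RefSeq spans (GRCh38.p14, the build of the files) with Python 3.11.15 and pandas 2.3.3, and the matching was tested on simulated data. Positions are the listed ones counted from 1. At all 3135 region starts inside RefSeq start windows, the base 1 above the listed start was a C or G of a CG pair. The listed start was itself such a letter at 1599 of them (51.0%). True positions were therefore taken to be 1 base higher, and capitals in the sequences allow for this. In 76.2% of the 2501 regions wholly inside windows the count of sites exceeded the CG pairs, and in none did it exceed the CG letters of both strands, so a site is a cytosine of either strand. Start windows were listed for 6 of the 10 genes; distances are from region centres to the nearest start. The genes, lists and thresholds were chosen with earlier results of these data known. Given in full were called regions, the region with the most sites, that with the lowest q of each gene, and those intermediate in both groups with at least 5 sites; the other regions were added after their values were seen.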

Additional observations from a re-analysis of the deposited data

How the results depend on the processing

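The median difference kept its sign and stayed within its interval under every alternative run, from 15.2 to 20.5 points. Over all regions the median moved more, from 17.4 points to 3.34 points without regions where a group mean is 0 and to 28.7 points with at least 10 sites. The number of called regions (3) was 6 at a difference of at least 10 points (14.3%, beside 8.60% over all regions), 6 within 50 kb (7.41% of 81), 1 at a q under 0.001 (2.38%, beside 3.31%) and 1 with Benjamini-Hochberg adjustment of the Kolmogorov-Smirnov p over all regions (2.38%, beside 4.12%). That adjustment called 1446 of all regions in place of 2368. The region called under the adjustment was that of ZIM2-AS1, while those of GRB10 and IGF2 were not. Within 5 kb, or in the spans alone, the region at ZIM2-AS1 drops out and 2 were called. The number intermediate in both groups (2) was 1 for a band of 40% to 60%, 5 for 30% to 70%, 4 within 50 kb and 1 with at least 10 sites. Over all regions 0.934% were intermediate in both groups in the narrower band and 7.33% in the wider. What lay behind these shifts was not tested. Positions 1 base higher, tried after seeing the data, changed none of the 3 values. The intervals describe the regions and not the libraries, and depth is unknown. No paired analysis was possible because the table gives 1 mean per group, and for the same reason no replicate could be left out.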
